A study of Homo sapiens with 6 samples.

Results

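The transcripts described here are those of 9 genes that encode components of promyelocytic leukaemia protein (PML) bodies or tripartite motif (TRIM) proteins tied to the interferon response. They were taken by name from the 63677 gene identifiers of the deposited count table, and each of the 9 symbols (PML, SP100, SP110, TRIM5, TRIM14, TRIM21, TRIM22, TRIM25 and TRIM38) matched a single identifier. RNA was profiled in UWB1.289, a human ovarian cancer cell line that the study describes as BRCA1-deficient and whose genotype the sample labels give as WT. Cells had been kept for 24 h in medium with either 4 µM Olaparib, an inhibitor of poly(ADP-ribose) polymerase (PARP), or the solvent DMSO, with 3 independent replicates of each. The sample labels and the methods give the 4 µM dose, while the design text of the series gives 10 µM. Every sample comes from this single line, and the comparison covers a single dose and a single time.

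PML bodies are nuclear assemblies built on the PML protein, which recruits partners such as SP100 and which takes part in antiviral defence, DNA repair and apoptosis. TRIM proteins usually combine a RING finger, which passes ubiquitin to other proteins, with B-box and coiled-coil regions, and PML is itself a TRIM protein. Type I interferon acts on promoters that hold an interferon-stimulated response element, and PML, SP100, SP110 and several TRIM genes are known interferon-responsive genes. The comparison asks how far transcripts of this branch of the interferon response differed between treated and control cells.

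Total counts per sample lay between 35360458 and 39640775, and all 9 genes had more than 10 counts in total, the limit for testing. In the labelled cell line, the epithelial and Müllerian markers EPCAM, KRT8, KRT18, KRT7, PAX8, MUC16 and CDH1 were measured, whereas WT1 had 8 counts over all 6 samples. The summed normalized count of the 7 measured was 469306 to 492815 under Olaparib and 463340 to 478688 under DMSO. PAX8, a lineage factor of the Müllerian tract, had a log2 fold change of 0.10 (edgeR adjusted p = 0.0399). That call was lost in 5 of the 6 fits that left out 1 sample, with adjusted p values from 0.0609 (without DMSO replicate 2) to 0.206 (without DMSO replicate 1), and was kept without Olaparib replicate 1. Of 6 leukocyte markers, 5 were tested, and their summed normalized count was 138 to 155 under Olaparib and 111 to 139 under DMSO. CD3E, with 6 counts over all samples, was not in the sum. Of 5 fibroblast and endothelial markers, PECAM1 had 0 counts and PDGFRB 5. The summed level of the other 3 was 1711 to 1914 under Olaparib and 1747 to 1881 under DMSO. VWF, the von Willebrand factor, was higher under Olaparib (log2 fold change 0.68, edgeR adjusted p = 0.0106), and DESeq2 gave it no adjusted p. Of the 3 tested, 1 had a log2 fold change above 0 and 2 below, down to -0.11. The part of these markers in the results was not tested, and in bulk RNA fewer cells with a transcript and less of it per cell cannot be told apart.

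Promoter sequences from RefSeq (GRCh38.p14, 250 bases before to 50 bases from the transcription start) were matched for 7 of the 9 genes, SP100 and SP110 having more than 1 promoter each. PML and TRIM22 were not matched. The core of the interferon-stimulated response element was searched on both strands as GAAA, any 2 bases and GAAA again, and the core of the gamma-activated sequence, another element of interferon-responsive promoters, as TTCNNNGAA, which reads the same on both strands. The response element core was found in 3 of the 9 promoters of these genes, those of TRIM5, TRIM14 and TRIM21, and in 3.57% of all 35116 promoters. The gamma-activated core was found in 1 of the 9, a promoter of SP110, and in 7.66% of all promoters. The stretches below show these matches in capitals, each written 5′ to 3′ along the gene. They are shown because they hold the letters that interferon factors are known to bind, in 4 of the genes described here. The stretches lie at chr9:98119223-98119282 (TRIM14), chr11:5685075-5685134 (TRIM5), chr2:230219985-230220044 (SP110) and chr11:4393663-4393692 (TRIM21), all on the minus strand.
TRIM14: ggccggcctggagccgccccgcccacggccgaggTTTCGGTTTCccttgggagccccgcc
TRIM5: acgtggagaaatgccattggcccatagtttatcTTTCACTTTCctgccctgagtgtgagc
SP110: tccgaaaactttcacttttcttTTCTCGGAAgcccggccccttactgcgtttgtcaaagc
TRIM21: ctgagcgGAAACTGAAAGTGAAAtagggag
The first 3 stretches are the 60 bases before the start. The match began 26 bases before the start in TRIM14 and 27 bases before it in TRIM5, in each case on the opposite strand. In TRIM21, a pair of overlapping matches lay just downstream of the start, beginning at its bases 18 and 24. The match in SP110 began 38 bases before the more downstream of its RefSeq starts. These are matches of letters and not measured binding sites.

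Treated and control samples were compared with the quasi-likelihood test of edgeR over the 21729 genes with more than 10 counts in total, and a gene was called at an adjusted p under 0.05 (Benjamini-Hochberg over all genes). SP110 and TRIM14 were called higher under Olaparib and none of the 9 genes was called lower, so 2 of 9 were called. Over all genes tested, 2.15% were called higher and 1.21% lower. With an absolute fold change above 1.2 as a further condition, SP110 alone was called, against 0.723% of all genes. At an unadjusted p under 0.05, 6 of the 9 genes were higher and 0 lower, where 7.83% of all genes were higher. The fitted log2 fold change was above 0 in 7 of the 9, with a median of 0.10, against 48.6% of all genes with a median of -0.0042. In 6 of the 9 (PML, SP110, TRIM5, TRIM14, TRIM22 and TRIM25), all 3 Olaparib samples lay above all 3 DMSO samples, which was so for 10.0% of all genes.

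**Figure D1:**
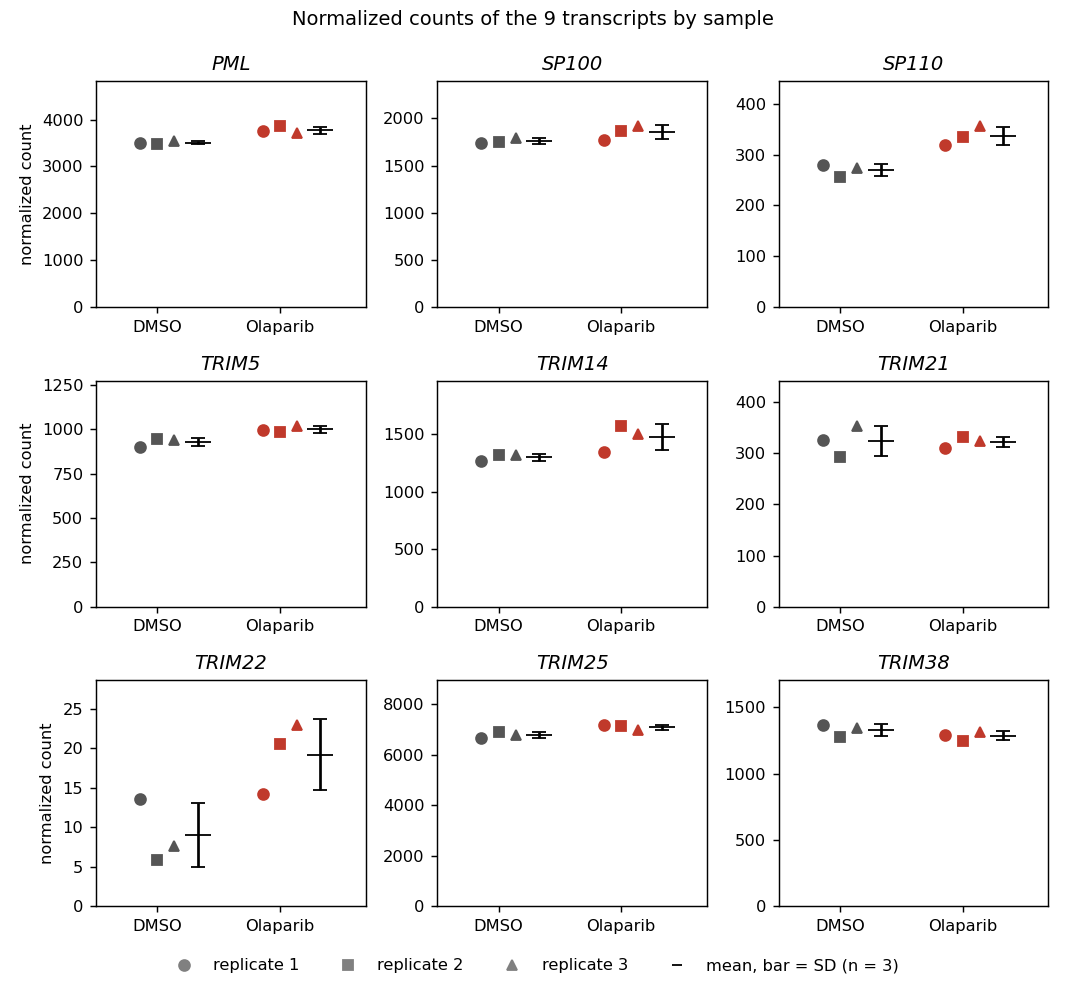
Normalized counts (vertical axes, from 0) of the 9 transcripts in the 3 DMSO samples (grey) and the 3 Olaparib samples (red), with the mean and SD of each group in black and 1 symbol per replicate. The groups do not overlap in 6 of the 9 panels, with the widest relative gap in SP110 and a narrow one in TRIM22, whose vertical axis ends below 30 counts.

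SP110 (ENSG00000135899, chromosome 2, 230165186 to 230225729, minus strand, GENCODE 44 on GRCh38) encodes a nuclear body protein of the SP100 family and is known for its link to hereditary immunodeficiency with liver disease. Its normalized counts were 320, 335 and 356 under Olaparib and 279, 256 and 273 under DMSO. Every treated sample was above every control, with the widest distance for Olaparib replicate 3. The mean was 337 ± 18.1 under Olaparib against 269 ± 12.0 under DMSO (SD, n = 3 each). This rise of 25.2% corresponds to a log2 fold change of 0.32 (edgeR, standard error or SE 0.073, adjusted p = 0.00675), with a 95% interval of 13.0% to 38.7%. The adjusted p was 0.0675 without Olaparib replicate 3 and 0.0711 without DMSO replicate 2, with log2 fold changes of 0.28 and 0.29. Of its exonic bases, 19.4% overlap another gene on the other strand, and the genes concerned, SP140 and ENSG00000225963, had at most 7 and 2 counts in any sample.

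SP110 lies in a cluster of related genes on chromosome 2 that also holds SP140, SP140L and SP100. The RefSeq start of SP140 is 100 bases from the upstream start of SP110, on the other strand. SP140, a reader of chromatin found mainly in immune cells, had 3 to 7 counts per sample and a log2 fold change of 0.38 (edgeR adjusted p = 0.807). SP140L had 1 count over all 6 samples and was not tested. SP100 (ENSG00000067066, chromosome 2, 230415942 to 230545606, plus strand), the antigen that first defined these nuclear dots, had 1774, 1870 and 1918 normalized counts under Olaparib and 1740, 1751 and 1792 under DMSO. Olaparib replicate 1 lay within the range of the DMSO samples, so the groups overlapped. The log2 fold change of SP100 was 0.074 (SE 0.042, edgeR adjusted p = 0.433), with a 95% interval of -0.011 to 0.16 that ends below the estimate for SP110. The log2 ratio of SP110 to SP100 was -2.47, -2.48 and -2.43 under Olaparib and -2.64, -2.77 and -2.71 under DMSO. Within samples, SP110 was thus 0.25 higher relative to SP100 under Olaparib, with separate groups (two-sided exact permutation p = 0.1, below which 3 samples in each group cannot go, and 0.2 after adjustment over the 2 ratios computed).

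PML (ENSG00000140464, chromosome 15, 73994673 to 74047827, plus strand), the scaffold of the bodies, had 3747, 3858 and 3718 normalized counts under Olaparib and 3491, 3488 and 3548 under DMSO. Each treated sample was above each control, and the SD was under 2% of the mean in both groups. The means were 3774 ± 73.8 and 3509 ± 33.9 (SD, n = 3 each). The log2 fold change of 0.10 (SE 0.035) came with an edgeR adjusted p of 0.108, and the 95% interval before adjustment ran from 0.033 to 0.18. PML was therefore not called, and a difference above 13.0% lies outside its interval.

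TRIM14 (ENSG00000106785, chromosome 9, 98069275 to 98119222, minus strand) encodes a mitochondrial adaptor of antiviral signaling that, unlike most TRIM proteins, has no RING finger. It had 1350, 1573 and 1501 normalized counts under Olaparib and 1265, 1320 and 1318 under DMSO. All treated samples were above all controls, but Olaparib replicate 1 stood closer to the controls than to the other treated samples. The mean was 1475 ± 114 under Olaparib against 1301 ± 31.0 under DMSO (SD, n = 3 each). This rise of 13.3% corresponds to a log2 fold change of 0.18 (edgeR, SE 0.049, adjusted p = 0.0287), with a 95% interval of 5.85% to 21.4%. The call was lost when a single sample was left out in 5 of 6 cases. The adjusted p values were 0.174 and 0.165 without Olaparib replicates 2 and 3, and 0.158, 0.0683 and 0.0673 without DMSO replicates 1, 2 and 3. Without Olaparib replicate 1 it was 9.98e-04, with a log2 fold change of 0.24. On the other strand, NANS overlaps 7.70% of the exonic bases of TRIM14 and had 3864 to 4548 counts per sample, with a log2 fold change of 0.036 (edgeR adjusted p = 0.741).

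TRIM22 (ENSG00000132274, chromosome 11, 5689610 to 5737089, plus strand), an interferon-induced ubiquitin ligase that restricts several viruses, was the least abundant of the 9 transcripts. It had 14, 20 and 23 raw counts under Olaparib and 13, 6 and 8 under DMSO, or 14.2, 20.5 and 22.9 against 13.6, 5.88 and 7.58 normalized counts. The groups did not overlap, but Olaparib replicate 1 and DMSO replicate 1 were almost level. The 57 counts under Olaparib have an exact Poisson 95% interval of 43.2 to 73.9, and the 27 counts under DMSO one of 17.8 to 39.3, both for counting error only. The log2 fold change of 1.10 was the largest of the 9 and also the least certain (SE 0.34, 95% interval 0.40 to 1.79). Its edgeR adjusted p was 0.0738, so TRIM22 was not called. It was 0.0442 without Olaparib replicate 1, 0.0367 without DMSO replicate 1 and 0.0338 with no filter on low counts. It was 0.191 and 0.273 without Olaparib replicates 2 and 3, and 0.290 and 0.229 without DMSO replicates 2 and 3. Without DMSO replicate 1 the log2 fold change was 1.49, and without DMSO replicate 2 it was 0.87.

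TRIM5 (ENSG00000132256, chromosome 11, 5663195 to 5938619, minus strand) is the capsid-binding restriction factor of retroviruses. By these coordinates TRIM22 lies within the bounds of TRIM5, on the other strand, and their exons do not overlap. TRIM5 had 995, 984 and 1020 normalized counts under Olaparib and 902, 945 and 939 under DMSO. The groups were separate by a narrow margin. The log2 fold change was 0.11 (SE 0.046, edgeR adjusted p = 0.255), with a 95% interval of 0.012 to 0.20. The log2 ratio of TRIM22 to TRIM5 was -5.73 ± 0.35 under Olaparib and -6.78 ± 0.66 under DMSO (SD, n = 3 each), with overlapping groups (exact permutation test, two-sided, p = 0.2, and 0.2 after adjustment over the 2 ratios). The next TRIM genes of this cluster are TRIM34 and TRIM6. TRIM34 had 11 counts over all 6 samples, and 83.6% of its exonic bases overlap the TRIM6-TRIM34 read-through gene. TRIM6 had 151 normalized counts under Olaparib and 166 under DMSO, a log2 fold change of -0.14 (edgeR adjusted p = 0.580).

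TRIM25 (ENSG00000121060, chromosome 17, 56836387 to 56914080, minus strand), the ubiquitin ligase known for activating the RNA sensor RIG-I, was the most abundant of the 9. It had 7151, 7115 and 6964 normalized counts under Olaparib and 6672, 6906 and 6762 under DMSO. The lowest treated sample was just above the highest control. The log2 fold change of 0.062 (SE 0.030, edgeR adjusted p = 0.336) had a 95% interval of 0.00016 to 0.12, so a difference above 8.92% lies outside it. C17orf67 and DGKE, which overlap TRIM25, had 115 to 157 and 769 to 883 counts per sample, and together with other genes they cover 6.73% of its exonic bases.

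TRIM21 and TRIM38 had log2 fold changes under 0. TRIM21 (ENSG00000132109, chromosome 11, 4384897 to 4393702, minus strand), the cytosolic antibody receptor also known as Ro52, had 311, 331 and 324 normalized counts under Olaparib and 325, 293 and 354 under DMSO. The treated samples lay inside the range of the controls. Its log2 fold change was -0.0097 (SE 0.073, 95% interval -0.16 to 0.14, edgeR adjusted p = 0.974), and it went to 0.017 without Olaparib replicate 1 and 0.058 without DMSO replicate 3, and to -0.077 without DMSO replicate 2. TRIM38 (ENSG00000112343, chromosome 6, 25962802 to 25991231, plus strand), a negative regulator of innate immune signaling, had 1293, 1246 and 1315 normalized counts under Olaparib and 1362, 1275 and 1343 under DMSO. These groups overlapped as well. For TRIM38 the log2 fold change was -0.046 (SE 0.045, 95% interval -0.14 to 0.045, edgeR adjusted p = 0.706). The 95% interval of TRIM14, 0.082 to 0.28, overlaps that of TRIM21 and lies above that of TRIM38. These differences between genes were not tested.

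**Figure D2:**
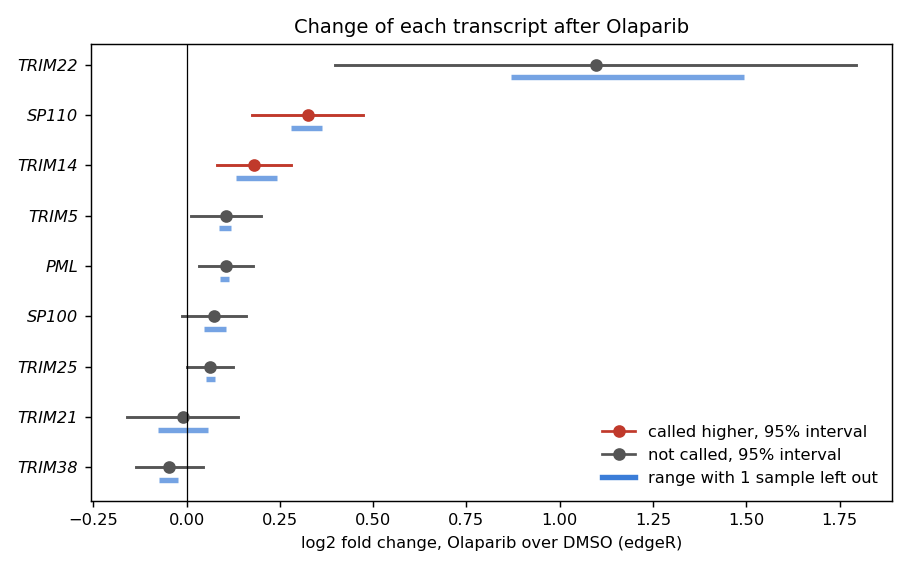
Log2 fold change of each of the 9 transcripts (horizontal axis, Olaparib over DMSO) from edgeR, with 95% intervals before adjustment, and in blue the range when each of the 6 samples was left out. SP110 at 0.32 and TRIM14 at 0.18 (red) were called, and TRIM22 at 1.10 has the widest interval.

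The 3 genes with the response element core in the printed stretches were not called alike, and the difference between them was not tested. TRIM14 was called, TRIM5 had a log2 fold change of 0.11 without a call, and TRIM21 one of -0.0097. SP110, with the gamma-activated core before the more downstream of its RefSeq starts, was called. That core was in 1 of the 9 promoters of these genes and in 7.66% of all promoters. TRIM25, TRIM38 and SP100, in whose windows neither set of letters was found, were not called. PML and TRIM22 had no window. Whether these letters go with the calls was not tested.

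Levels were compared between genes as normalized counts per kilobase of the MANE Select transcript, the agreed reference transcript of each gene. Under DMSO, TRIM25 had 1180 ± 20.6 normalized counts per kilobase (SD, n = 3), followed by PML at 631 ± 6.10, SP100 at 325 ± 5.03, TRIM14 at 290 ± 6.92 and TRIM5 at 276 ± 6.93. TRIM21 at 167 ± 15.6 and TRIM38 at 141 ± 4.89 came next, then SP110 at 43.5 ± 1.94 and TRIM22 at 3.12 ± 1.40. The body scaffold and SP100 were thus well above SP110 on this scale, and TRIM22 was close to the lower limit of measurement. No neighbours in this order overlapped among the DMSO samples, although TRIM14 (282 to 295) and TRIM5 (268 to 281) nearly met. Under Olaparib, TRIM14 (301 to 351) overlapped both SP100 (328 to 354) and TRIM5 (292 to 303). The counts cover all exons of a gene, so genes with many other transcripts are placed less certainly.

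Among the treated samples, Olaparib replicate 1 was the lowest in 5 of the 9 transcripts (SP100, SP110, TRIM14, TRIM21 and TRIM22), and Olaparib replicate 3 was the highest in 5 (SP100, SP110, TRIM5, TRIM22 and TRIM38). In PML and TRIM25 the order was different, with Olaparib replicate 3 the lowest of the treated samples. Over 15525 genes, Olaparib replicate 1 also differed more from replicates 2 and 3 (chi-square per degree of freedom 3.80 and 3.35) than they did from each other (2.28). The share of all genes with this order was not computed, and whether the order is particular to the 9 transcripts was not tested. On the log2 scale relative to the DMSO mean, SP110 stood at 0.25, 0.32 and 0.40 in the 3 treated samples. SP100 stood at 0.011, 0.087 and 0.12, and PML at 0.095, 0.14 and 0.083.

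**Figure D3:**
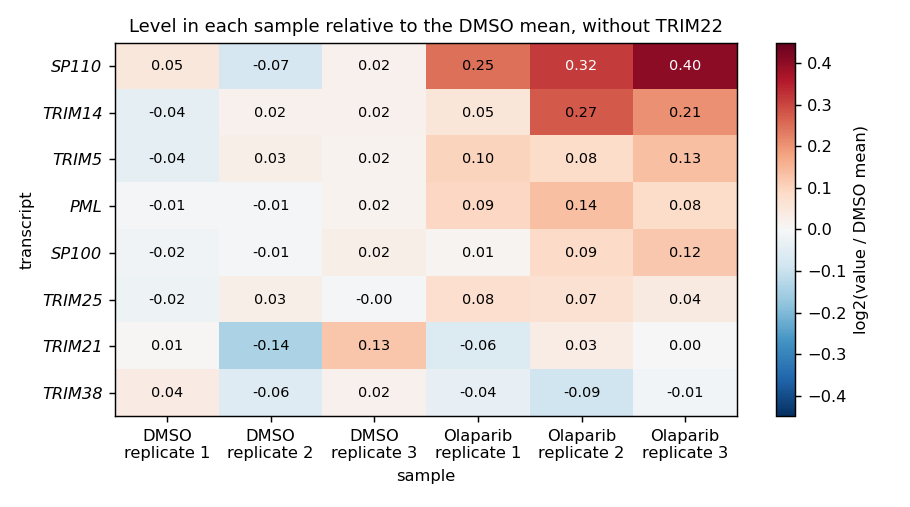
Log2 ratio of each sample's normalized count to the DMSO mean (colour and printed value) for 8 of the 9 transcripts (rows) in the 6 samples (columns). TRIM22 is left out because its values, up to 1.34, exceed the colour scale. SP110 is above 0.2 in every treated sample, whereas TRIM14 reaches 0.27 and 0.21 in replicates 2 and 3 and 0.054 in replicate 1.

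The genes whose pattern over the 6 samples was most like the mean pattern of the 9 transcripts were ranked by Pearson's r on log2 CPM, among 11989 other genes with a mean normalized count of at least 100. The highest were XAF1 (r = 0.994), MX1 (0.992), IGFBP7 (0.992), MRPS18A (0.989) and OAS2 (0.989), each over the same 6 libraries and the same treatment contrast. XAF1, an interferon-induced pro-apoptotic factor, had 152 ± 25.1 normalized counts under Olaparib and 84.9 ± 14.1 under DMSO (SD, n = 3 each), with a log2 fold change of 0.85 (edgeR adjusted p = 8.7e-05). IGFBP7, a secreted growth factor binding protein, had a log2 fold change of 0.15 (edgeR adjusted p = 0.0339), and MRPS18A, a mitochondrial ribosome protein, one of 0.11 (edgeR adjusted p = 0.191). TRIM22 varied most among the 9, and it was left out of the mean pattern in an alternative chosen after seeing the data. The r of XAF1 was then 0.977 at rank 25, that of IGFBP7 0.963 at rank 63 and that of OAS2 0.957 at rank 86. MX1 had 0.940 at rank 144 and MRPS18A 0.940 at rank 147.

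The wider TRIM family was taken as every protein-coding gene named TRIM with a number. Outside the 9 genes this gave 61, among them TRIM6 and TRIM34. Of these, 47 were tested and 14 had 10 counts or fewer in total (TRIM29, TRIM31, TRIM40, TRIM42, TRIM43, TRIM48, TRIM49, TRIM51, TRIM60, TRIM63, TRIM64, TRIM72, TRIM75 and TRIM77). By edgeR's quasi-likelihood test 0 of the 47 were called higher and 0 lower, against 2.15% and 1.21% of all genes. DESeq2 and limma voom, run on the same counts, also called 0. At an unadjusted p under 0.05, 1 was higher (TRIM28) and 0 lower, where 14.8% of all genes passed in either direction. Their median log2 fold change was 0.0058, with 25 above and 22 below 0. TRIM28, the corepressor of KRAB zinc finger proteins, had a log2 fold change of 0.087 (edgeR adjusted p = 0.103). Groups were separate in 6 of the 47 with Olaparib higher and in 2 with Olaparib lower, against 10.0% and 9.29% of all genes.

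**Figure D4:**
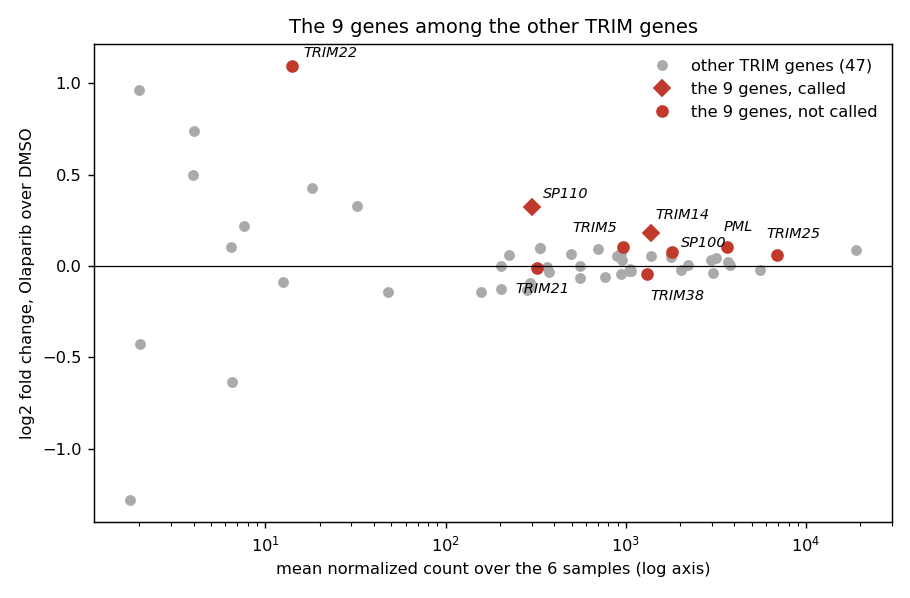
Log2 fold change (vertical axis, Olaparib over DMSO) against the mean normalized count over the 6 samples (horizontal log axis) for the 9 genes (red) and the 47 other TRIM genes tested (grey). SP110 and TRIM14 (diamonds) were called. Grey points with large changes are at low counts, like TRIM22.

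Other proteins of PML bodies were covered by a list of 15 genes, among them the chromatin partners DAXX and ATRX and the ubiquitin ligase RNF4. Of these, 14 were tested, and edgeR, DESeq2 and limma voom called 0 of them in either direction. Over all genes, edgeR called 2.15% higher and 1.21% lower. At an unadjusted p under 0.05 in edgeR, 0 of the 14 passed, where 14.8% of all genes did. Their median log2 fold change was 0.034. DAXX had a log2 fold change of -0.031 (edgeR adjusted p = 0.819).

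Among 12 receptors, kinases and factors that carry the interferon signal, 2 were called higher and 0 lower, against 2.15% and 1.21% of all genes. IRF7, which amplifies the type I interferon response, had 694, 838 and 843 normalized counts under Olaparib and 607, 588 and 654 under DMSO, a log2 fold change of 0.36 (edgeR adjusted p = 1.9e-04). As in TRIM14, the treated sample nearest to the controls was Olaparib replicate 1. The median of the 12 genes was 0.047.

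Among 10 genes that work with the TRIM ligases in nucleic acid sensing, 2 were called higher and 0 lower, against 2.15% and 1.21% of all genes. Their median log2 fold change was 0.010, with 6 above and 4 below 0. At an unadjusted p under 0.05 in edgeR, 2 were higher and 1 lower, where 14.8% of all genes passed in either direction. The lower one was CGAS, with a log2 fold change of -0.13 (edgeR adjusted p = 0.170). IFIH1, the sensor MDA5, had a log2 fold change of 0.23 (edgeR adjusted p = 0.00376, 0.0963 without Olaparib replicate 3 and 0.0570 without DMSO replicate 2). ISG15, a ubiquitin-like modifier, had 2436, 3047 and 3251 normalized counts under Olaparib and 2531, 2282 and 2526 under DMSO. Its groups overlapped through Olaparib replicate 1, and its log2 fold change was 0.25 (edgeR adjusted p = 0.0113 and 0.331 from DESeq2). With edgeR, ISG15 was also not called without Olaparib replicate 2 or 3 or DMSO replicate 2 (adjusted p = 0.108, 0.185 and 0.154). RIGI, the sensor on which TRIM25 acts, had 15 counts over all 6 samples, 2 to 3 in each, so a difference could not be measured from these counts. Of the exonic bases of RIGI, 43.2% overlap ENSG00000288684 on the same strand, and the part of this overlap in its low count was not tested. TRIM25 itself had a normalized count of at least 6672 in every sample.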

How the data were processed

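The authors deposited raw read counts per gene, which were not normalized, for 3 Olaparib and 3 DMSO samples. According to the methods and labels, they trimmed adapters with Trimmomatic, mapped reads from stranded poly(A) libraries to GRCh38 with STAR, marked duplicates with Picard and counted with featureCounts. Neither the strand setting nor removal of duplicates is stated, so overlapping genes are uncertain. Rows of the table were assigned to samples by the description label. Genes with more than 10 counts in total were scaled by TMM and tested with edgeR 4.0.16 (quasi-likelihood, Benjamini-Hochberg over 21729 genes, R 4.3.3), and normalized counts are counts scaled to the mean library. The 95% intervals come from the same fit, on its t distribution. DESeq2 1.42.0, limma 3.58.1 (voom), other scaling and filters, a replicate block and leaving out each sample were alternatives. The test was tested on simulated data. The study called genes with DESeq2 and also applied limma to the transcripts. Names, coordinates and transcript lengths came from GENCODE 44, which held 96.0% of tested identifiers. Replicates differed by more than sampling noise (chi-square per degree of freedom 1.81 to 4.11 over 15525 genes). The value was higher for pairs with replicate 1 (DMSO 4.02 and 4.11, Olaparib 3.80 and 3.35) than for replicates 2 and 3 (DMSO 1.81, Olaparib 2.28). The members and lists were chosen with earlier results of these data known. The genes named are the 9 members, list genes that were called or had 10 counts or fewer, TRIM6 and TRIM34, the largest rises and falls among called other TRIM genes (none) and the 5 genes most alike in pattern. Others, such as TRIM28, DAXX and RIGI, were named after their values were seen. Counting error only is covered by the Poisson intervals. Some genes of the lists are not reported here.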

Additional observations from a re-analysis of the deposited data

How the results depend on the processing

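The 2 calls among the 9 genes were made by DESeq2, limma voom, size factor scaling and filterByExpr too. With no filter on low counts or with a replicate block there were 3. Leaving out 1 sample gave 0 to 3 members higher, and 0 to 2 with the fold condition, which also gave 2 with no filter. Over all genes, leaving out 1 sample gave 270 to 567 called higher and 127 to 303 lower, and DESeq2 called 154 lower. Of the TRIM pathway partners, 1 was higher with DESeq2 and 0 to 2 with a sample left out. Of the other TRIM genes, 1 (TRIM28) was higher with no filter and with the replicate block. The log2 fold change of TRIM21 turned to 0.017 without Olaparib replicate 1 and to 0.058 without DMSO replicate 3, and was -0.077 without DMSO replicate 2. With the replicate block, 805 genes were called higher and 517 lower, 1 TRIM pathway partner (CGAS) was lower, and PML had an adjusted p of 0.0377. Samples with the same number did not deviate together (correlations -0.079, 0.10 and -0.10 over 14807 genes), and 1 of the 3 Olaparib samples correlated best with the DMSO sample of its own number, so the block was not used. DESeq2 gave TRIM22 no adjusted p. The cause of these changes was not tested. The low counts of TRIM22, TRIM34, SP140 and RIGI limit what can be measured, and the part of depth or of overlapping genes in them was not tested.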
